A study of Mus musculus with 8 samples.

Results

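The change of liver gene expression with time on a control diet was described from 4 of the 8 arrays of the series. The 2 arrays of mice fed a normal diet (ND, 4.8% fat) for 9 months were compared with the 2 arrays of mice fed it for 3 months. The arrays were chosen by the diet and duration in their titles, and no measured value entered the choice. The animals were male C57BL/6 mice, an inbred laboratory strain, bought at an age of 5 weeks, with no transgene or drug named in the labels. Time on diet and age therefore rose together and cannot be told apart. The other 4 mice, 2 per duration, were kept on a diet high in fat (HFD, 58% fat) over the same 3 or 9 months and serve below for comparison and in the estimate of the spread. Both diets were eaten without restriction. Each array was a 1-colour Agilent whole-genome array that held Cy3-labelled RNA from the liver of 1 mouse. A free-text field of the labels also speaks of steatohepatitis for the ND arrays, whereas title, source and diet fields give the normal diet, which was followed. The hour of killing and whether food was withdrawn beforehand are not given in the sources used here.

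As background, the liver changes its gene programme with feeding. After a meal, insulin raises SREBP-1c, the product of Srebf1, which switches on fatty acid synthesis, while low sterol in the endoplasmic reticulum releases SREBP-2, which switches on cholesterol synthesis. In fasting, fatty acids from adipose tissue activate the nuclear receptor PPARα, whose targets oxidise fatty acids, make ketone bodies and encode the hormone FGF21. Glucocorticoids and the circadian clock act on many of the same genes, and transcripts such as Dbp and Arntl rise and fall over each day in opposite phases. Metallothioneins are small proteins that bind zinc and copper and are induced by metals, glucocorticoids and inflammatory cytokines.

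All 4 ND arrays shared 1 slide and 1 scan, with the younger mice in its row 1 and the older mice in its row 2, so that duration and position cannot be told apart. On the ND arrays the 75th percentile of the processed signal was 482 to 597, and 44.4% to 54.1% of spots were well above background, with no order by duration. Values below are log2 signals minus the 75th percentile of the same array, so 0 marks that percentile. They compare arrays for 1 probe and not different genes with each other. The 2 mice of the 3-month group were closer to each other than the 2 mice of the 9-month group: the SD of the difference between mice over 20165 features was 0.349 at 3 months and 0.662 at 9 months, and 354 against 2022 features lay more than 2-fold apart. Albumin mRNA stood at 10.31 and 10.50 in the 3-month mice and at 10.11 and 10.30 in the 9-month mice, and 24 of 25 hepatocyte markers were measured. None of these 24 passed the test in limma (2 at an unadjusted p under 0.05), and their median change was -0.13 (-0.15 to 0.01 under other scalings). Albumin was well above background on all 4 ND arrays, and each of the 24 markers on at least 1 of them. Changes are given as 9 minus 3 months on the log2 scale ± SE from 1 limma fit of 8 arrays (n = 2 mice per group), with p-values adjusted over all features, and a gene is said to have risen or fallen where its adjusted p was under 0.05. Per the labels each array came from a separate mouse.

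Between 3 and 9 months on ND, 89 features rose (0.441% of 20165) and 120 fell (0.595%), together 209 (1.04%). Of these, 60 rises and 92 falls had a gene symbol. The rises were led by metallothioneins, Fgf21, the cell cycle inhibitor gene Cdkn1a and genes of fatty acid oxidation, and the falls by genes of fatty acid and cholesterol synthesis, by Car3 and by the solute and steroid genes described below. The median change was 2.60 among the rises and -2.01 among the falls, against -0.075 over all features. At an unadjusted p under 0.05, 3198 features differed, 1307 of them higher. All 209 calls were without overlap between the 2 durations, as were 60.5% of all features. Genes were named in part for having no overlap, so such a gap in a named gene gives no added support. Counts of calls in the gene lists below are to be read beside the 0.441% of all features that rose and the 0.595% that fell. With either of the 3-month arrays left out, no feature passed (0 each, with 1725 and 1501 at an unadjusted p under 0.05), and with 9-month mouse 1 or mouse 2 left out, 56 and 59 passed. With only the 4 ND arrays in the fit, 174 features passed, 93 of them also among the 209. Of the 24 genes with the largest changes, 8 of 12 rises and 9 of 12 falls passed there too; Fgf21, Rad51b, Acnat2, Apoa4, Msmo1, Inmt and Cyp2c70 did not. Under quantile normalization Thrsp, Insig1, Apoa4 and Serpina4-ps1 missed the threshold, and so did Msmo1 with the authors' value table and Acot5, Rab30 and Aqp8 with a gene's probes averaged, all with the same direction.

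**Figure D1:**
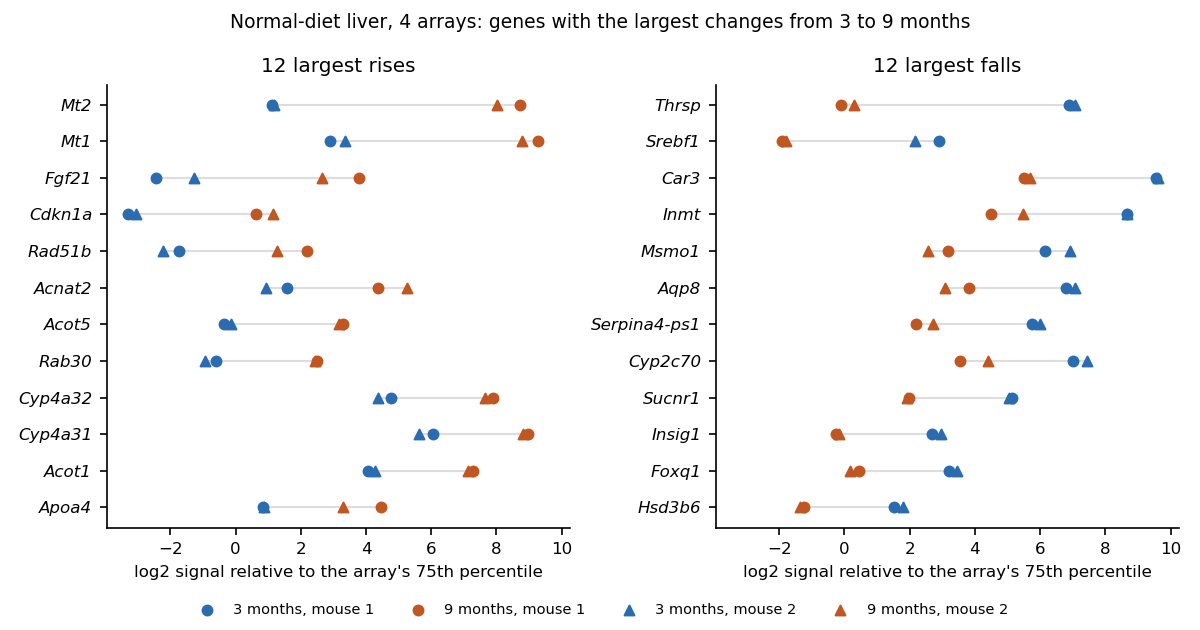
Signal of the 12 genes with the largest rises (left) and the 12 with the largest falls (right) on the 4 normal-diet arrays, as log2 relative to the 75th percentile of each array on the x axis. Blue points are mice at 3 months and orange points mice at 9 months, circles are mouse 1 and triangles mouse 2, and a grey line spans the 4 values; in each gene both blue points lie on 1 side of both orange points, which the rule for naming genes required. Mt2 moved farthest up, from 1.11 and 1.17 to 8.71 and 8.01, and Thrsp farthest down, from 6.89 and 7.07 to -0.12 and 0.30.

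The largest rise was that of Mt2, which encodes metallothionein 2. Its signal was 1.11 and 1.17 in the 3-month mice and 8.71 and 8.01 in the 9-month mice. It rose by 7.22 ± 0.30 (149-fold, adjusted p = 0.00236). Mt1, the neighbouring gene for metallothionein 1, was at 2.90 and 3.35 and then at 9.28 and 8.79, a rise of 5.91 ± 0.34 (60.2-fold, adjusted p = 0.00697). Both genes also passed with the ND arrays alone and with either 9-month mouse left out. Of 8 measured genes of metallothionein and zinc handling only these 2 passed. Slc30a1, the zinc exporter that metal-responsive transcription also controls, stood at 2.06 and 2.07 and then at 2.67 and 2.44 (change 0.49 ± 0.23, adjusted p = 0.373). Slc39a4, a zinc importer, stood at 6.35 and 5.77 and then at 4.64 and 5.79, with overlapping groups.

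The upstream regions of these 2 genes are shown because the metallothionein genes are the textbook case of metal-responsive transcription. The core letters of the metal response element, TGCACNC or TGCGCNC on either strand, were looked for after the values had been seen. They occur in 21.4% of the 32851 RefSeq windows of the 250 bases before a gene start, and 3 or more times in 1.26%. The bases come from RefSeq on build GRCm38.p6, both genes lie on the + strand, the windows end just before the annotated start, and capitals mark the matches.
Mt2, chr8:94172368-94172617: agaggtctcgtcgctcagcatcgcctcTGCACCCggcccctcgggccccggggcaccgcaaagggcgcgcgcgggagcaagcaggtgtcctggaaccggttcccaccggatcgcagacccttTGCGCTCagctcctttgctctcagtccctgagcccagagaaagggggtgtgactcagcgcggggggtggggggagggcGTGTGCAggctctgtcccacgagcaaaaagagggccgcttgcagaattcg
Mt1, chr8:94178839-94179088: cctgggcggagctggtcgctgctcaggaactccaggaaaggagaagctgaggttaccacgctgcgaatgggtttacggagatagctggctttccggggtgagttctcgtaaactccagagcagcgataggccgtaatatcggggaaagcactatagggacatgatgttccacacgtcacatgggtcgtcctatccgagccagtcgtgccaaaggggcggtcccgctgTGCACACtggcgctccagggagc
The Mt2 window holds 3 matches, 223, 128 and 50 bases before the start, and the Mt1 window 1 match, 23 bases before it. Bases after the annotated start were not searched, so these counts are for the windows and not for whole promoters. Among the 6 genes of the list with a window, 4 held at least 1 match, and 2 of these 4, Slc30a1 and Slc30a10, did not pass the test.

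Fgf21, the fasting hormone of the liver, was at -2.44 and -1.28 in the 3-month mice and at 3.80 and 2.65 in the 9-month mice. It rose by 5.09 ± 0.59 (34.0-fold, adjusted p = 0.029). Cdkn1a, which encodes the cyclin-dependent kinase inhibitor p21, was at -3.30 and -3.06 and then at 0.62 and 1.14. Its rise was 4.06 ± 0.33 (16.7-fold, adjusted p = 0.0146), and the mice of a group lay close together. The size of this rise depended on the processing, from 2.47 to 4.32 over all alternatives. Its 3-month signals lay near the dimmest that counted as above background on those arrays, -4.49 and -3.53. Other p53 and senescence genes did not pass: of 22 measured, Cdkn1a alone rose and 0 fell, and their median change was 0.05. Angptl4, an inhibitor of lipoprotein lipase induced in fasting, was at 5.71 and 5.86 and then at 7.34 and 7.69, a rise of 1.73 ± 0.22 (3.32-fold, adjusted p = 0.0315). Of 26 measured genes of the fasting list, 3 rose and 0 fell (median 0.45), and 0.441% of all features rose. At an unadjusted p under 0.05, 9 of the 26 were higher and 2 lower. The gluconeogenic gene Pck1 (0.81 ± 0.27, adjusted p = 0.232) and the coactivator gene Ppargc1a (0.09 ± 0.26, adjusted p = 0.926) did not pass. With the ND arrays alone neither Fgf21 (adjusted p = 0.0592) nor Angptl4 (adjusted p = 0.0546) passed, and 1 of the 26 genes did.

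Genes of fatty acid oxidation and PPARα targets were mostly higher at 9 months. Of 33 measured genes, 7 rose and 0 fell, the median change was 0.77 (0.67 to 0.94 over all alternatives), and 19 had an unadjusted p under 0.05, all higher. Over all features 0.441% rose and the median was -0.075. The Cyp4a genes encode microsomal fatty acid omega-hydroxylases and are standard PPARα targets. Cyp4a32 was at 4.75 and 4.38 and then at 7.90 and 7.64, a rise of 3.20 ± 0.21 (9.21-fold, adjusted p = 0.00697). Cyp4a31 was at 6.05 and 5.63 and then at 8.97 and 8.83, a rise of 3.06 ± 0.21 (8.32-fold, adjusted p = 0.00721). Cyp4a10 rose by 2.94 ± 0.20 and Cyp4a14 by 2.75 ± 0.32. These 4 genes are close relatives, and cross-hybridisation between their probes was not tested, so they may not be 4 separate measurements. Their groups did not overlap, as was so for all 209 calls.

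Enzymes of peroxisomes and acyl-CoA handling moved the same way. Ehhadh, the bifunctional enzyme of peroxisomal oxidation, was at 5.08 and 4.89 and then at 7.06 and 7.01, a rise of 2.05 ± 0.18 (4.14-fold, adjusted p = 0.0187). Acot1, a cytosolic acyl-CoA thioesterase, was at 4.07 and 4.27 and then at 7.29 and 7.14, a rise of 3.04 ± 0.21 (8.23-fold, adjusted p = 0.00721). Crat, carnitine acetyltransferase, rose by 2.11 ± 0.26 (4.32-fold, adjusted p = 0.0314), a call that was lost with the ND arrays alone (adjusted p = 0.06), after normexp background correction (1.58) and in the authors' value table (1.32). Outside the list, Acnat2, a peroxisomal acyltransferase relative, was at 1.57 and 0.94 and then at 4.38 and 5.26 (3.56 ± 0.45, adjusted p = 0.0315). The values of Acot5, a peroxisomal acyl-CoA thioesterase, were -0.35 and -0.13 and then 3.28 and 3.17 (3.47 ± 0.28, adjusted p = 0.0146), but its other probe differed by only 0.01, and the call was lost with the mean of both. Cpt1a, the enzyme that admits fatty acids to mitochondria, was at 5.50 and 5.27 and then at 6.58 and 6.26, higher in both 9-month mice but not past the threshold (1.04 ± 0.29, adjusted p = 0.163). With the ND arrays alone 6 of the 33 genes rose, and with either 3-month array left out 0 did.

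The remaining genes among the 12 largest rises were Rad51b, Rab30 and Apoa4. Apoa4, an apolipoprotein of triglyceride-rich particles, was at 0.86 and 0.87 and then at 4.45 and 3.31, a rise of 3.02 ± 0.45 (adjusted p = 0.046) that did not pass with the ND arrays alone. It was the 1 gene of 15 measured apolipoprotein and lipoprotein genes to pass. Rad51b, a gene of homologous recombination repair, was at -1.75 and -2.22 and then at 2.20 and 1.27 (3.72 ± 0.39, adjusted p = 0.0271). Rab30, a small GTPase of the Golgi, was at -0.59 and -0.94 and then at 2.51 and 2.44 (3.24 ± 0.20, adjusted p = 0.00697), but its second probe changed by 0.63. In the lipid droplet list, Plin5, a droplet protein of oxidative tissues, rose by 2.15 ± 0.25 (4.81 and 4.83, then 7.04 and 6.91). Pparg, the nuclear receptor that promotes fat storage, fell by 1.53 ± 0.17, from 3.64 and 3.71 to 2.18 and 2.12. So 2 of 22 lipid droplet genes rose and 1 fell, and the list median was 0.12.

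Genes of fatty acid synthesis were among the largest falls. Thrsp, a small protein that promotes lipogenesis, showed the largest fall of any named gene, from 6.89 and 7.07 to -0.12 and 0.30. The change was -6.89 ± 1.02 (119-fold lower, adjusted p = 0.0443), with a gap between the groups many times the spread within them on ND. The SE is set by all 4 groups, HFD included. Srebf1 was at 2.88 and 2.15 and then at -1.93 and -1.78, a change of -4.37 ± 0.27 (20.7-fold lower, adjusted p = 0.00697). Of 21 measured genes of this list these 2 fell and 0 rose, 19 were lower in the mean, and the median change was -1.34 (-1.41 to -1.13 over all alternatives). Fasn, fatty acid synthase, was at 2.22 and 2.22 and then at -2.33 and -1.84, without overlap, but its SE of 1.02 left a change of -4.31 at an adjusted p of 0.119. Scd1, stearoyl-CoA desaturase, stood at 7.91 and 7.75 and then at 4.45 and 5.20 (8.02-fold lower, adjusted p = 0.138). With the ND arrays alone, 7 of the 21 genes fell. In the list of feeding-induced and glycolytic genes Thrsp and Srebf1 passed, out of 20, against 0.595% of all features that fell. At an unadjusted p under 0.05, 10 of the 20 were lower and 1 higher, and the list median was -0.91.

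Genes of cholesterol synthesis were lower throughout the list. Each of the 25 measured genes was lower in the mean, 24 without overlap between the groups, against 37.1% of all features lower without overlap. The median change was -2.11 (-2.54 to -1.85 over all alternatives), 22 genes had an unadjusted p under 0.05, and 5 passed the adjusted threshold. Msmo1, a sterol demethylase, was at 6.15 and 6.91 and then at 3.17 and 2.58 (-3.66 ± 0.50, adjusted p = 0.0374). Insig1, which holds SREBP back in the endoplasmic reticulum and is itself an SREBP target, was at 2.67 and 2.96 and then at -0.27 and -0.17 (-3.03 ± 0.46, adjusted p = 0.0475). Mvk, mevalonate kinase, was at 4.42 and 5.18 and then at 2.37 and 2.08 (-2.58 ± 0.30, adjusted p = 0.029). Each of these had both 9-month mice below both 3-month mice, and none of the 209 calls had overlapping groups. Acat2 fell by 1.83 ± 0.24. With the ND arrays alone Insig1 passed again, while Msmo1, Mvk and Acat2 had adjusted p-values of 0.0538, 0.0614 and 0.0593, so the 5 genes of the list that passed there were largely others. No gene of the list passed with any ND array left out (0 of 25 in each case).

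Insig1 has a CACGTG E-box, the palindrome to which SREBP and clock proteins can bind, 101 bases before its annotated start, and is shown for that reason with the E-box in capitals.
Insig1, chr5:28071291-28071336, + strand: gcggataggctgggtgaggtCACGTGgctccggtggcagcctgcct
An E-box occurs in 6.02% of all 32851 RefSeq windows of 250 bases before a start. At least 1 window held it in 4 of 17 cholesterol genes with windows, in 3 of 17 fatty acid synthesis genes and in 4 of 15 clock genes. The sterol element TCACNCCAC, present in 1.05% of windows, was found in 1 gene of each of the 2 lipid lists, and the D-box TTANGTAA, present in 2.06%, in 1 clock gene. Genes with several windows had more chances of a match than a single window.

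**Figure D2:**
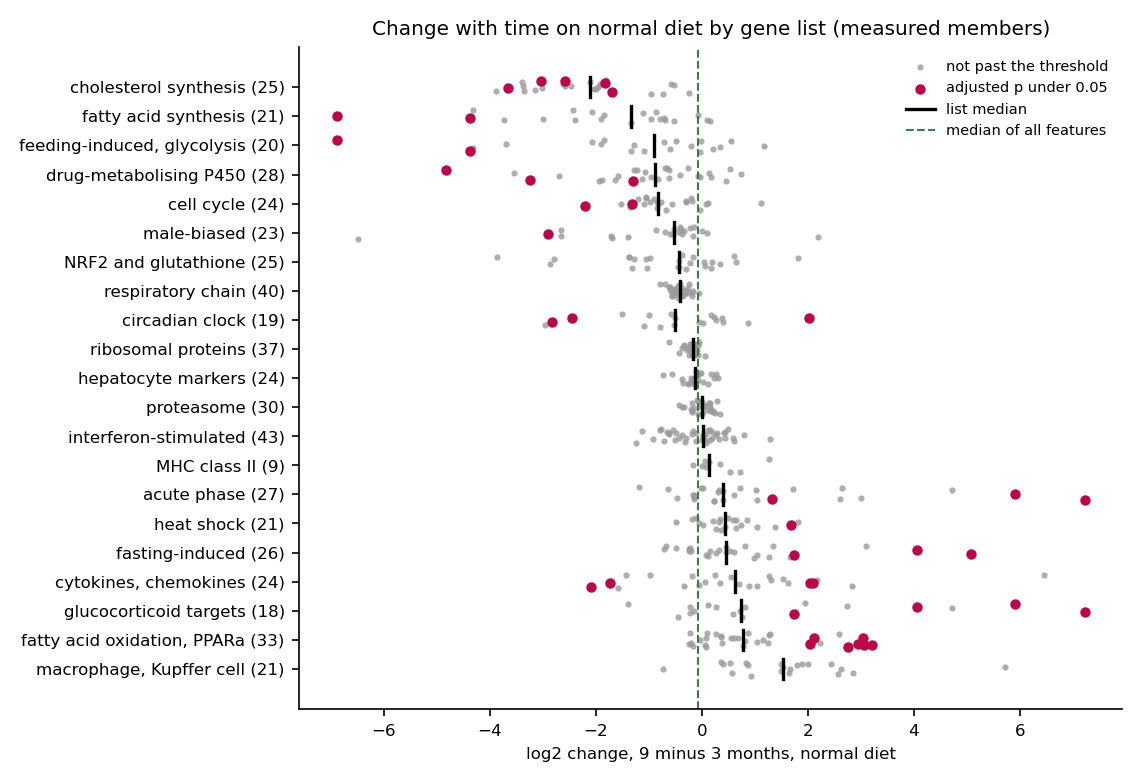
Change from 3 to 9 months on normal diet (x axis, log2) for the measured members of 21 gene lists, with the number of members in brackets. Grey points did not pass and red points passed the adjusted threshold, black bars are list medians and the green dashed line is the median of all features at -0.075; cholesterol synthesis sits farthest to the left with a median of -2.11 and the macrophage list farthest to the right at 1.53 with no red point.

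Other large falls were in genes of metabolism and transport. Car3, carbonic anhydrase 3, which is abundant in male liver and in fat, was at 9.55 and 9.62 and then at 5.51 and 5.69. It fell by 3.98 ± 0.17 (15.8-fold lower, adjusted p = 0.00236). Because Car3 is also an adipocyte marker, the other 4 measured genes of that list are given: Cfd was lower (-4.68 ± 1.11, adjusted p = 0.117), and Fabp4, Lipe and Cidea changed by -0.23, -0.36 and 0.48. Inmt, an N-methyltransferase, was at 8.68 and 8.66 and then at 4.49 and 5.49 (-3.68 ± 0.35, adjusted p = 0.0226). Aqp8, an aquaporin of hepatocytes, was at 6.80 and 7.08 and then at 3.81 and 3.08 (-3.50 ± 0.44, adjusted p = 0.0315), and its second probe changed by -3.57. Sucnr1, the succinate receptor, was at 5.15 and 5.04 and then at 1.98 and 1.92 (-3.14 ± 0.32, adjusted p = 0.0253). Foxq1, a forkhead factor, was at 3.20 and 3.45 and then at 0.46 and 0.17 (-3.02 ± 0.30, adjusted p = 0.0252). In each of them the groups did not overlap, which the rule for naming genes required. The serpin pseudogene Serpina4-ps1 was at 5.74 and 6.01 and then at 2.20 and 2.73 (-3.41 ± 0.52, adjusted p = 0.0487).

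Genes of steroid and drug metabolism were also among the falls. Hsd3b6, a 3-beta-hydroxysteroid dehydrogenase, was at 1.53 and 1.79 and then at -1.23 and -1.36 (-2.96 ± 0.37, adjusted p = 0.0314). Of 28 measured P450 genes of drug metabolism 3 fell and 0 rose, with a median of -0.89, and 0.595% of all features fell. At an unadjusted p under 0.05, 14 of the 28 were lower and 0 higher. Cyp2c70, an enzyme of bile acid hydroxylation in mice, was at 7.02 and 7.43 and then at 3.54 and 4.40 (-3.25 ± 0.31, 9.54-fold lower, adjusted p = 0.0226). Cyp2c29 fell by 1.30 ± 0.20 (adjusted p = 0.0489). Cyp2c55 passed as well (adjusted p = 0.0475) but was well above background in only 1 of the 2 mice at 9 months. None of the 3 P450 genes passed with the ND arrays alone. Among genes higher in male than in female liver, 1 of 23 fell, Hsd3b2 (-2.91 ± 0.43, adjusted p = 0.0443; 0.067 with the ND arrays alone), and the male-specific Hsd3b5 was at 7.36 and 7.70 and then at -0.23 and 2.31 (-6.49 ± 1.41, adjusted p = 0.10), a wide gap with 9-month mice that differed from each other. Of 18 genes higher in female liver, 2 rose, and both, Cyp4a10 and Cyp4a14, are also PPARα targets. Growth hormone signalling genes had no call among 14 (2 higher and 2 lower at an unadjusted p under 0.05), with Cish nearest at -2.68 ± 0.44 (adjusted p = 0.055) and Igf1 at -0.27 ± 0.21. Of 25 genes of the NRF2 and glutathione list none passed. At an unadjusted p under 0.05, 2 were higher and 8 lower, Gsta1 among the lower ones (4.99 and 4.78, then 0.17 and 1.87).

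Some genes were well above background at 1 duration only, and their folds are bounds, set against the dimmest signal that still counted as above background. Such bounds hold only for the processed signal used here. Irak3, a brake on Toll-like receptor signalling, was at least 9.44-fold higher at 9 months and Slc6a21 at least 7.04-fold, but in the authors' value table their log2 changes were 1.65 and 1.39, smaller than these bounds and not past the threshold. In the other direction, Adgrf1, an adhesion G protein-coupled receptor, was at least 19.4-fold lower at 9 months, and it passed in the authors' value table too, with a smaller log2 change of -2.42. Glt8d2, Olfr1037, Cend1, Colgalt2 and Clic3 were well above background on 2 of the 8 arrays, those of the ND group where they were high, so that they entered the test only through that group, the filter on dim probes in part fixed their difference, and no fold is given for them. Their calls were lost after normexp background correction and in the authors' value table, where their log2 changes were 0.62, 0.49, 0.43, -0.69 and -0.57. Sh2d4a lost its call there as well (-0.25).

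Clock genes differed in a pattern with both directions. Dbp, an output transcription factor of the clock, was at 6.43 and 6.05 in the 3-month mice and at 3.38 and 3.45 in the 9-month mice. It fell by 2.83 ± 0.23 (7.10-fold lower, adjusted p = 0.0146), and its second probe changed by -2.77. Bhlhe40, a repressor in the clock loop, was at 3.10 and 3.88 and then at 0.84 and 1.22 (-2.46 ± 0.32, adjusted p = 0.0331). Arntl, which encodes BMAL1, the positive arm of the clock, was at -1.83 and -1.26 and then at 0.51 and 0.43 (2.02 ± 0.26, adjusted p = 0.0331). Of 19 measured clock genes 1 rose and 2 fell, and of 22 clock output genes none passed (3 higher and 4 lower at an unadjusted p under 0.05). Dbp was the 1 clock gene to pass with the ND arrays alone, and no clock gene passed with any ND array left out (0 of 19).

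The other clock genes were less uniform. Nr1d1, which encodes REV-ERBα, was at 1.82 and 1.80 and then at 1.00 and 0.62 (-1.001 ± 0.43, adjusted p = 0.332). Per2 was at -1.07 and -1.43 and then at -2.83 and -1.85 (-1.09 ± 0.60, adjusted p = 0.453). Both were lower in each 9-month mouse without passing the test. Per1 was at 2.15 and 2.19 in the 3-month mice, at 0.85 in 9-month mouse 1 and at 4.04 in 9-month mouse 2, so the older mice lay on either side of the younger ones. Fkbp5, a glucocorticoid target, was also higher in 9-month mouse 2 (5.16) than in mouse 1 (3.78), against 2.47 and 2.58 at 3 months (1.94 ± 0.52, adjusted p = 0.153). In the list of 18 glucocorticoid targets 4 rose, namely Mt2, Mt1, Cdkn1a and Angptl4, and 0 fell (median 0.74). Whether the 2 durations were sampled at the same hour was not tested, since no hour is given in the sources used here.

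**Figure D3:**
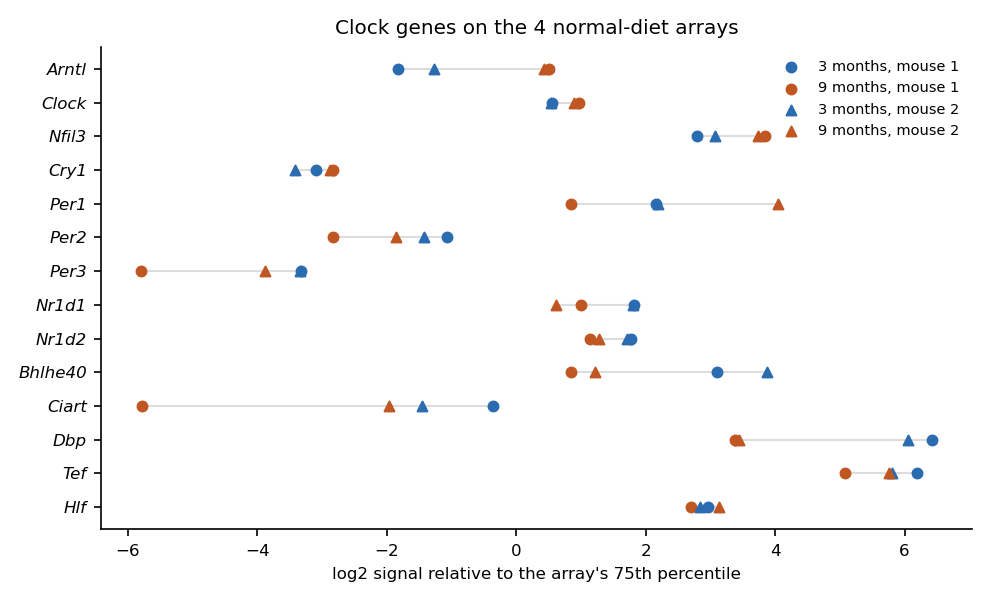
Signal of clock genes on the 4 normal-diet arrays, as log2 relative to the 75th percentile of each array on the x axis, with colours and symbols for age and mouse as in the legend. Dbp and Bhlhe40 are lower and Arntl is higher in both 9-month mice, while Per1 has the 3-month mice at 2.15 and 2.19 between the 9-month mice at 0.85 and 4.04.

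Calls among inflammatory and stress genes are set beside all features, of which 0.441% rose and 0.595% fell. At an unadjusted p under 0.05, 8 acute phase genes were higher and 0 lower, and 7 heat shock genes were higher and 0 lower. By the same measure 10 cytokine and chemokine genes were higher and 4 lower, and 1 cell cycle gene was higher and 9 lower. In the acute phase list 3 of 27 genes rose, the metallothioneins and Lbp, the lipopolysaccharide-binding protein, which went from 3.32 in both 3-month mice to 4.68 and 4.59 (1.32 ± 0.18, adjusted p = 0.0407). Lcn2, lipocalin 2, was at 0.81 and 0.25 and then at 6.86 and 3.65 (4.72 ± 0.96, adjusted p = 0.0892). Of 24 cytokine and chemokine genes 2 rose and 2 fell. Tnfaip3, a brake on NF-κB, rose by 2.04 ± 0.20 (-2.16 and -2.15, then 0.09 and -0.32), and Icam1, an adhesion molecule, was at least 3.56-fold higher, since it was not well above background at 3 months. Ccl9 fell by 2.10 ± 0.31 and Ccl24 by 1.73 ± 0.25. Cxcl13, a B cell attractant, was at -2.25 and -3.78 and then at 4.86 and 2.00, a change of 6.45 ± 1.26 that did not pass (adjusted p = 0.0831). It was well above background in only 1 of the 2 mice at 3 months. Interferon-stimulated genes had no call among 43 (0 higher and 3 lower at an unadjusted p under 0.05). Hsph1, a heat shock protein, rose by 1.68 ± 0.24 and was the 1 of 21 heat shock genes to pass. In the cell cycle list 2 of 24 genes fell, the replication helicase genes Mcm5 (-2.20 ± 0.27) and Mcm3 (-1.33 ± 0.20). With only the ND arrays in the fit Tnfaip3 and Lbp passed again, while Icam1, Ccl9, Ccl24, Hsph1, Mcm5 and Mcm3 did not (adjusted p = 0.0563 to 0.0732). Icam1, Ccl24 and Mcm5 also missed the threshold after normexp background correction and in the authors' value table, where the change of Icam1 was 0.63.

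Markers of macrophages and Kupffer cells, the resident macrophages of the liver, were higher in the mean at 9 months, but none passed. Of 21 measured genes 20 were higher, 15 without overlap against 23.4% of all features, 12 had an unadjusted p under 0.05, and the median change was 1.53. Their summed linear level was 120 and 108 in the 3-month mice, 512 in 9-month mouse 1 and 187 in 9-month mouse 2. The 9-month mice thus differed from each other in a like direction: mouse 1 exceeded mouse 2 by a median of 1.76, and 3-month mouse 1 exceeded mouse 2 by 0.71. The median change was 0.68 without 9-month mouse 1 and 2.47 without 9-month mouse 2. In bulk RNA, fewer or more cells of a type and less or more RNA per cell cannot be told apart.

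Marco, a scavenger receptor, was at 1.42 and 0.23 and then at 7.49 and 5.61 (5.72 ± 1.12, adjusted p = 0.0852). Adgre1, the gene of a classical macrophage surface antigen, was at 0.27 and -0.59 and then at 3.55 and 1.27 (2.57 ± 0.74, adjusted p = 0.176). Clec4f, a defining Kupffer cell gene, was at 2.60 and 1.83 and then at 3.69 and 2.40, so the groups overlapped, and Csf1r was at 5.09 and 5.21 and then at 6.28 and 5.10. Marco thus differed by more than Adgre1, Clec4f and Csf1r did. Clec4f and Csf1r were chosen after their values were seen and do not stand for the list, in which 15 of 21 genes were higher without overlap. In other immune lists 9-month mouse 1 also exceeded mouse 2 in the median over genes, by distances that varied. The median difference was 1.88 over 9 B cell genes, 1.52 over 9 MHC class II genes and 1.09 over 8 neutrophil genes. It was 0.63 over 9 dendritic cell genes, 0.54 over 17 T and NK cell genes and 0.13 over 7 plasma cell genes. None of these lists had a call in limma, and at an unadjusted p under 0.05 they had, in this order, 0, 0, 2, 3, 3 and 2 higher genes, and 1 lower gene each among the dendritic and plasma cell genes. Summed linear levels went the other way for dendritic cell genes (157 in 9-month mouse 1, 309 in mouse 2) and neutrophil genes (225 and 238). For the rest of these lists the sums were higher in mouse 1. The part of these cells in the changes of other genes was not tested. Mt1, Mt2, Fgf21, Thrsp and Srebf1 differed between the 9-month mice by at most 1.15. Any 3-month and any 9-month mouse on ND differed in them by at least 3.93. These genes were named for large changes without overlap on the same arrays, so such a gap was in part set by that choice.

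**Figure D4:**
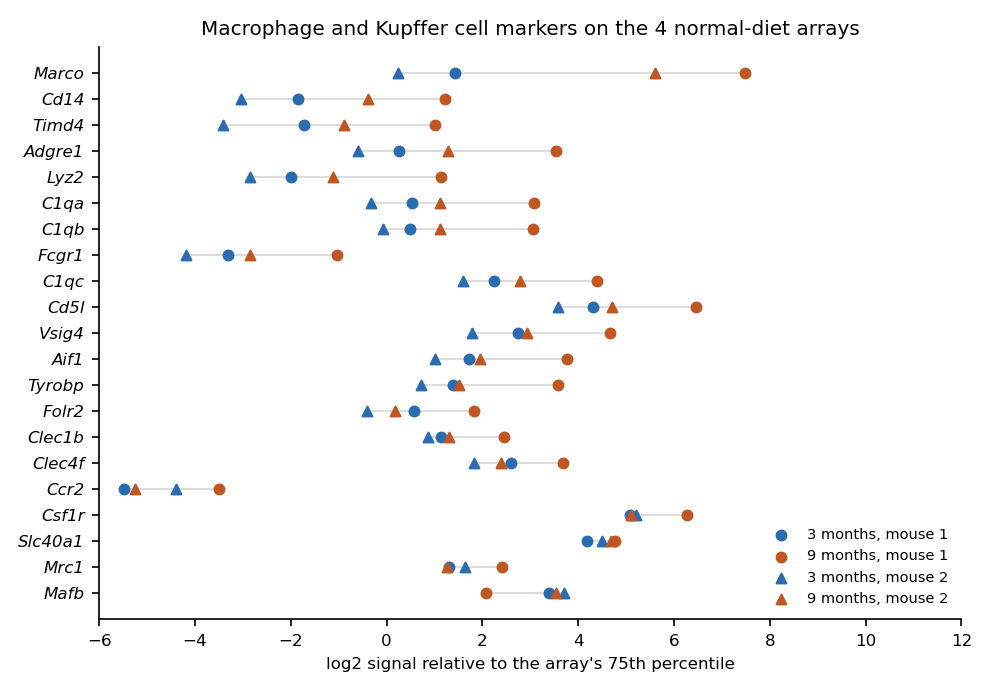
Signal of 21 macrophage and Kupffer cell markers on the 4 normal-diet arrays, ordered by change, as log2 relative to the 75th percentile of each array on the x axis. In most genes 9-month mouse 1 (orange circles) lies to the right of 9-month mouse 2 (orange triangles), by a median of 1.76, and none of the genes passed the test.

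Lists of housekeeping functions had no call. Of 40 genes of the mitochondrial respiratory chain 39 were lower without overlap, against 37.1% of all features, and 0 passed (13 lower and 0 higher at an unadjusted p under 0.05). Their median change was -0.42 and kept its sign under all alternatives (-0.46 to -0.21). The largest was that of Sdhb, a subunit of complex II, at 7.86 and 7.77 and then at 7.05 and 6.98 (-0.80 ± 0.17, adjusted p = 0.0998). The medians were -0.16 for 37 ribosomal protein genes (between -0.22 and 0.01 over the alternatives) and 0.00 for 30 proteasome genes, with 0 calls each (2 lower and none at an unadjusted p under 0.05). Cyp7a1, the rate-limiting enzyme of bile acid synthesis, was at 1.62 and 2.85 and then at 1.95 and 3.00 (0.25 ± 0.80), with mice of both ages overlapping. In the extracellular matrix list 0 of 28 genes passed, with 2 higher and 2 lower at an unadjusted p under 0.05, Col3a1 nearest (-1.62 ± 0.34, adjusted p = 0.0968).

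The same contrast in mice on HFD gave a second set of 4 arrays, which shares no array with the ND contrast but entered the same estimate of the spread. The difference of the 2 changes was tested as an interaction, and 0 of 20165 features passed (0%; 1537 at an unadjusted p under 0.05, smallest adjusted p = 0.146 for Car3). No gene was therefore shown to change differently on the 2 diets. With HFD 9-month mouse 1 left out, the difference for Hamp, the hepcidin gene, was 9.09. That fit leaves 1 array in the HFD 9-month group. The array had the lowest 75th percentile of the series, 185, and the smallest share of spots well above background, 40.6%. Hamp was also chosen after its value was seen, so this difference is not a result on the diets. Over all features the ND and HFD changes correlated with r = 0.407 across genes, which are not independent replicates.

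To use calls that HFD values did not help to make, the genes called from the 4 ND arrays alone were followed on HFD. Of 67 such rises 54 were higher at 9 months on HFD too (80.6%, against 49.6% of all features), 33 of them without overlap (49.3% against 21%), with a median of 0.57. Of the falls called in this way, 101 were lower on HFD (94.4% of them, against 50.3% of all features), 83 without overlap (77.6% against 23.3%), with a median of -1.03. Slide row and age changed with duration on both slides, so these shares do not part duration from row or age.

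The changes of single genes and the list medians on the 2 diets are given side by side. On HFD Mt2 was at 3.99 and 3.49 at 3 months and at 7.13 and 7.34 at 9 months, a change of 3.50 ± 0.30 against 7.22 on ND (difference 3.73 ± 0.42, adjusted p = 0.228). Cyp4a32 changed by 0.37 ± 0.21 on HFD against 3.20 on ND (difference 2.83 ± 0.30, adjusted p = 0.228), and Ehhadh by -0.10 against 2.05 (difference 2.15 ± 0.25, adjusted p = 0.228). Car3 changed by -0.74 on HFD (difference -3.24 ± 0.24), Dbp by -0.32 (difference -2.50 ± 0.33, adjusted p = 0.271) and Pparg by -0.02 (difference -1.50 ± 0.23, adjusted p = 0.271). None of these differences passed. Rab30, Acot5, Zfp982 and Haus8, the other genes with the smallest p for the difference, had adjusted p-values of 0.228 to 0.271. Fasn changed by -3.72 ± 1.02 on HFD and -4.31 ± 1.02 on ND. The list medians on HFD were -1.53 for cholesterol synthesis, -1.11 for fatty acid synthesis, -0.06 for fatty acid oxidation and 0.34 for macrophages, beside -2.11, -1.34, 0.77 and 1.53 on ND.

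**Figure D5:**
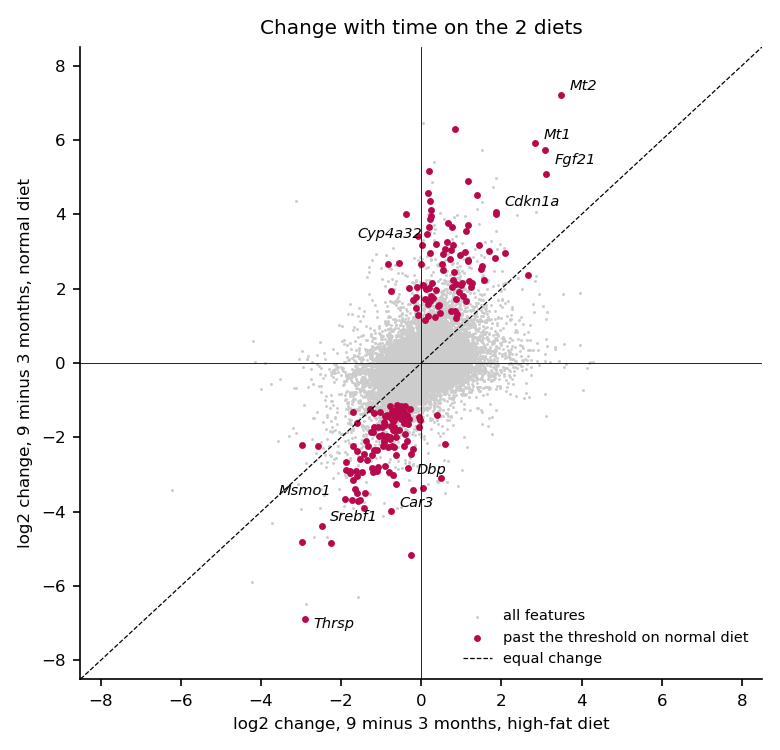
Change from 3 to 9 months on normal diet (y axis, log2) against the same change on high-fat diet (x axis, log2) for 20165 features. Grey points are all features, red points the 209 that passed on normal diet, and the dashed line marks equal change. Of the red points 77 of 89 rises lie to the right of 0 (86.5%, against 49.6% of all features). Of the falls 116 of 120 lie to the left (96.7%, against 50.3%). The high-fat arrays entered the estimate of the spread behind these calls. None of the differences between diets passed the test.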

How the data were processed

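Liver RNA of 8 mice was measured on 1-colour arrays read with Agilent Feature Extraction 10.7.1.1, per the submitters' processing notes. Per the file headers, the processed signal the authors deposited is an intensity from which background had been subtracted and a spatial trend removed, with no scaling to other arrays, and the deposited median signals of spots and their surroundings are uncorrected intensity values. The deposited flags are other values, coded as 0 or 1. A deposited table with the authors' own values is in log2 units and served as an alternative. Its median was 7.14 on each array, and its values kept the rank order of the uncorrected median signals (Spearman rho 1 on each array).

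Of 62976 spots, 3671 control spots and outlier spots were left out. The log2 processed signal (pseudocount 0) was set relative to the 75th percentile of its array, and spots of a probe were averaged. A probe stayed in (25801 did) if any group had it well above background in both mice. The brightest probe of a gene gave 20165 features, 12886 with a symbol and 7279 without. Symbols come from matching accessions in the array files to RefSeq (26065 of 55681 probes). The annotation of the arrays uses build mm9, so no probe coordinates are given, and promoter sequences carry their own RefSeq coordinates.

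The groups were fitted together with limma 3.58.1 in R 4.3.3 (lmFit and eBayes, 4 residual degrees of freedom, prior 2.33; package data.table in version 1.17.8, jsonlite 2.0.0), adjusted by the Benjamini-Hochberg method and tested on simulated data. Figures were drawn in matplotlib 3.10.9 under Python 3.11.15.

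Named genes are the 12 largest rises and 12 largest falls among features past the threshold with a proper symbol, well above background on all 4 ND arrays and without overlap, up to 5 genes per direction given as bounds, up to 5 members of each list by p, 5 per direction of the interaction with the smallest p, and a panel of 18 genes. Clec4f, Csf1r and Hamp fall outside this rule and were chosen after their values were seen. A few genes that the rule names are not reported here. The comparison, the lists and the genes were chosen with earlier results of these data known, and they give no independent support. Only 2 mice per group limit the precision of every value.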

Additional observations from a re-analysis of the deposited data

How the results depend on the processing

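Against 209 features past the threshold, 163 to 247 passed under quantile normalization, the authors' value table, normexp correction (offset 50), averaged probes, a floor under dim values, and filters taken on all arrays or on the ND groups. The number was 5 without a filter, 324 with trend and robust moderation, 1409 with array weights, and 174 with only the 4 ND arrays (247 with array weights added, chosen after seeing the data). With 1 array left out it ranged from 0 to 319, with 42 and 43 when an HFD 3-month array was left out. The share of rises among the calls, 42.6%, became 60.0% with no filter and 76.8% and 72.9% without 9-month ND mouse 1 and mouse 2. With the mouse number as a replicate block, 56 features passed (64.3% rises). Same-numbered mice deviated together with r of -0.018 to 0.137 across groups. These values gave no sign that the numbers pair the animals, but with 2 mice per group they could not exclude it. The numbers also coincide with the slide column. The interaction had 0 calls, but 1 each under quantile normalization, under the filter on all arrays and under trend and robust moderation, and 0 to 173 with 1 array left out. The 24 genes with the largest changes kept their direction in each of these fits. No direction of 263 single genes reversed where it had been called. The cause of these differences was not tested, except that leaving out an array of a group leaves 1 mouse there, assumed to vary like the other groups.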

Other observations

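Several lists not described above held no more than 1 call on ND. Of 37 complement and coagulation genes, 1 fell, F11, the gene for coagulation factor XI, from 4.43 and 4.41 to 2.28 and 2.78 (-1.90 ± 0.21, adjusted p = 0.029, and 0.0575 with the ND arrays alone), and the list median was -0.16. Among 39 genes of amino acid metabolism and the urea cycle, 0 passed in limma (2 higher and 9 lower at an unadjusted p under 0.05). Otc, the urea cycle enzyme ornithine transcarbamylase, was at 6.96 and 6.78 and then at 5.41 and 5.85 (-1.24 ± 0.28, adjusted p = 0.11). Mat1a, which makes the methyl donor S-adenosylmethionine, was at 6.70 and 6.59 and then at 7.99 and 7.96 (1.33 ± 0.26, adjusted p = 0.0852).

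In the list of 28 unfolded protein and integrated stress response genes, Fgf21 was the 1 call. Chac1, a glutathione-degrading target of ATF4, was lower in both 9-month mice (2.64 and 2.19, then 0.96 and 0.22), and Trib3, another ATF4 target, changed by -0.64 ± 0.21 (adjusted p = 0.221). Of 24 bile acid genes 0 passed (2 higher and 3 lower at an unadjusted p under 0.05), with Abcb4, the phospholipid exporter of bile, nearest (1.38 ± 0.24, adjusted p = 0.0636). Of 26 immediate early genes 0 passed (4 higher and 2 lower at an unadjusted p under 0.05), and 3-month mouse 2 exceeded mouse 1 there, the list median of mouse 1 minus mouse 2 being -0.96. Gadd45b was at -1.57 and 1.14 in the 3-month mice and at 2.45 and 3.30 in the 9-month mice.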
